A study of Mus musculus with 16 samples.

Results

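Transcripts of the presynaptic vesicle release machinery were examined in microglia of the olfactory bulb (OB), the first relay of the sense of smell. The 30 genes were chosen by symbol from the 57010 rows of the count table, with earlier results of these data known. They encode proteins of SNARE fusion, the active zone, the synaptic vesicle, vesicle endocytosis and axonal transport. All 30 were present and all 30 passed the filter on low counts (5 counts or more, in no fewer than 50% of libraries), as did 18227 genes overall. The table held 16 libraries, 4 from each sex of 2 genotypes, all from mice aged 2 months. WT animals were of the C57BL/6 J strain. The other genotype, APP-NL-G-F (labelled KI and called knock-in here), carried on that background an App gene with a humanised amyloid-beta sequence and with the disease changes known as Swedish (NL), Arctic (G) and Beyreuther/Iberian (F), expressed from the gene's own promoter. Microglia of both genotypes were captured from perfused OBs with CD11b microbeads, and rRNA-depleted total RNA was sequenced. Rows for rRNA still held 16.6% to 22.9% of the counts of each library. The labels do not say whether each library is 1 animal, so p-values measure the spread between these libraries.

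At the presynapse, a filled vesicle is tethered and primed at the active zone, a protein scaffold built of Bassoon, Piccolo, RIM, ELKS, Munc13 and liprin proteins. Calcium binding to a synaptotagmin then triggers fusion by the SNARE complex of SNAP-25, syntaxin-1 and VAMP2, after which NSF takes the complex apart and dynamin, amphiphysin and synaptojanin recover the membrane. Many of these genes are known as neuronal genes, but not all, as NSF acts in all cells. Microglia, the phagocytes of the brain, also use related family members for their own membrane traffic.

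Library totals ranged from 9052932 to 18117286 counts, and a count of 0 would allow 0.166 to 0.331 CPM (TMM-scaled counts relative to the library total). The lowest count of any of the 30 genes in any library was 23, for Rph3a. The cell type label was read against defining markers. The 16 microglia markers summed to between 25270 and 30230 CPM per library, and their levels per kb of exon ran from 61.6 CPM (Trem2) to 1097 CPM (C1qa) for the markers with a known length. The 30 presynaptic genes lay far lower, from 0.347 (Rph3a) to 14.4 CPM per kb (Synj1) as a mean of all libraries. Neuron markers were nevertheless present in every library, at a sum of 366 to 729 CPM over 20 genes. So were markers of other cell types, as for astrocytes (502 to 1206 CPM over 9 genes) and border macrophages (410 to 861 CPM over 6 genes). In these bulk samples, fewer cells of a type and less RNA per cell cannot be told apart.

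The stretch of DNA just before the transcription start was read for the members listed in RefSeq (GRCm38.p6), 25 of the 30, because it is a feature that the choice of genes did not use. Counted from 250 bases before to 50 bases after the start, CG dinucleotides numbered 7 (Rph3a) to 38 (Bsn, Nsf and Syngr1) per gene with a median of 21, against a median of 7 over all 32851 promoters in the table, and 24 of the 25 genes lay above that median. The GC content had a median of 62.3% against 52.7%. The 120 bases before the start are shown for 4 genes, with each CG in capitals. Ppfia2 had the largest fold change between the genotypes, Pclo encodes the largest active zone scaffold named here, Synj1 had the highest level per kb, and Sv2b was among the lowest and most variable.
Ppfia2, chr10:106470190-106470309, + strand: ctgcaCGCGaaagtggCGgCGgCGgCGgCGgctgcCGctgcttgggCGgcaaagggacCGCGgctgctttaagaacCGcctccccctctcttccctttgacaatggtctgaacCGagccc
Pclo, chr5:14514798-14514917, + strand: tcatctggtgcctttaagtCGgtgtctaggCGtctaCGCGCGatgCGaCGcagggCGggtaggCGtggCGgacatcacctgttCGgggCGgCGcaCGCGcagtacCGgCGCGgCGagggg
Synj1, chr16:91011309-91011428, - strand: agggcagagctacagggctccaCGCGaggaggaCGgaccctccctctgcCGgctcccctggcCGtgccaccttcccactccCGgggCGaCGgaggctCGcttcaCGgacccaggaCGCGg
Sv2b, chr7:75309263-75309382, - strand: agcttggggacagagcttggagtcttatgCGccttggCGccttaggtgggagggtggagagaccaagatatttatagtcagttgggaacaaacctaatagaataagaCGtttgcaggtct
These windows held 13, 19, 12 and 3 CG dinucleotides, and the median over all promoters in the same window was 3. In these 120 bases, the stretch before Sv2b was thus no richer in CG than the usual promoter, unlike the other 3. In the longer window, from 250 bases before to 50 after, Sv2b had 10, above the median of 7.

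Short motifs were searched on both strands of the same windows, as a description of letters only. REST is a repressor that binds neuronal genes outside neurons, and its element has a left part, CAGCACC, and a right part, GGACAG. The left part occurred in 3 of the 25 genes (Syn1, Rph3a and Unc13a; 12% of genes against 7.14% of all promoters) and the right part in 5 (20% against 22.2%). No member window held both parts joined in the order and spacing of the full element, which 0.0365% of all promoters did. The TATA core TATAAA was present in 1 gene, Sv2b (4% against 13.6%), and the letters TGACGT of the cyclic AMP response element in 3, Sh3gl2, Rab3a and Syn1 (12% against 7.51%). Member shares are per gene, and some genes have several promoters in the table.

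Levels within the group, compared as CPM per kb of exon, mixed the roles of the proteins. Synj1, which encodes the phosphatase synaptojanin-1 that uncoats recovered vesicles, was highest at 14.4, followed by Vamp2 (13.4), Dnm1 (11.3), Syngr1 (8.66) and Unc13a (8.40). Synj1 was at percentile 88.3 of the protein-coding genes tested, whereas Sv2b at 0.516 and Rph3a at 0.347 CPM per kb lay at percentiles 17.9 and 12.8. Genes of the same class lay far apart, as for the SNARE genes Vamp2 (13.4), Snap25 (6.89) and Stx1a (2.48), the synapsins Syn1 (6.26) and Syn2 (2.72) and the scaffolds Bsn (6.81), Pclo (3.80) and Rims1 (1.19).

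Neighbouring genes in this order often overlapped in their spread, but the spread itself differed from gene to gene. Synj1 stayed within 118 to 136 CPM in all 16 libraries, with a coefficient of variation of 3.12% in WT and 4.46% in knock-in. Nsf, the ATPase that disassembles SNARE complexes in all cells, varied by 3.46% and 2.697%. At the other end Sv2b, a vesicle glycoprotein, varied by 52.0% and 32.0%, and Unc13a, the priming factor Munc13-1, by 30.3% and 20.9%.

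The first question of the design was which genes differed between APP-NL-G-F and WT microglia. Most of the 30 genes were measured somewhat higher in knock-in, and the differences were small. A total of 25 had a log2 fold change above 0, and the median over the 30 was 0.24, against -0.001 over all genes tested. At the study's thresholds in edgeR's quasi-likelihood test (FDR, the Benjamini-Hochberg adjusted p, below 0.1, with a log2 fold change beyond 0.5 in either direction), 1 member rose, Ppfia2, and 0 fell. The background for such calls was 4.33% of all genes higher and 4.3% lower, so 1 of 30 is no more than the background. By the FDR alone, a threshold added after the data were seen, 13 of 30 members (43.3%) rose and 0 fell, against a background of 6.95% higher and 7.82% lower. At an unadjusted p below 0.05 the counts were 17 higher and 1 lower, against 12.3% and 11.8% of all genes. In no member did the 8 knock-in libraries all lie above the 8 WT libraries, a separation found in 0.137% of genes.

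**Figure D1:**
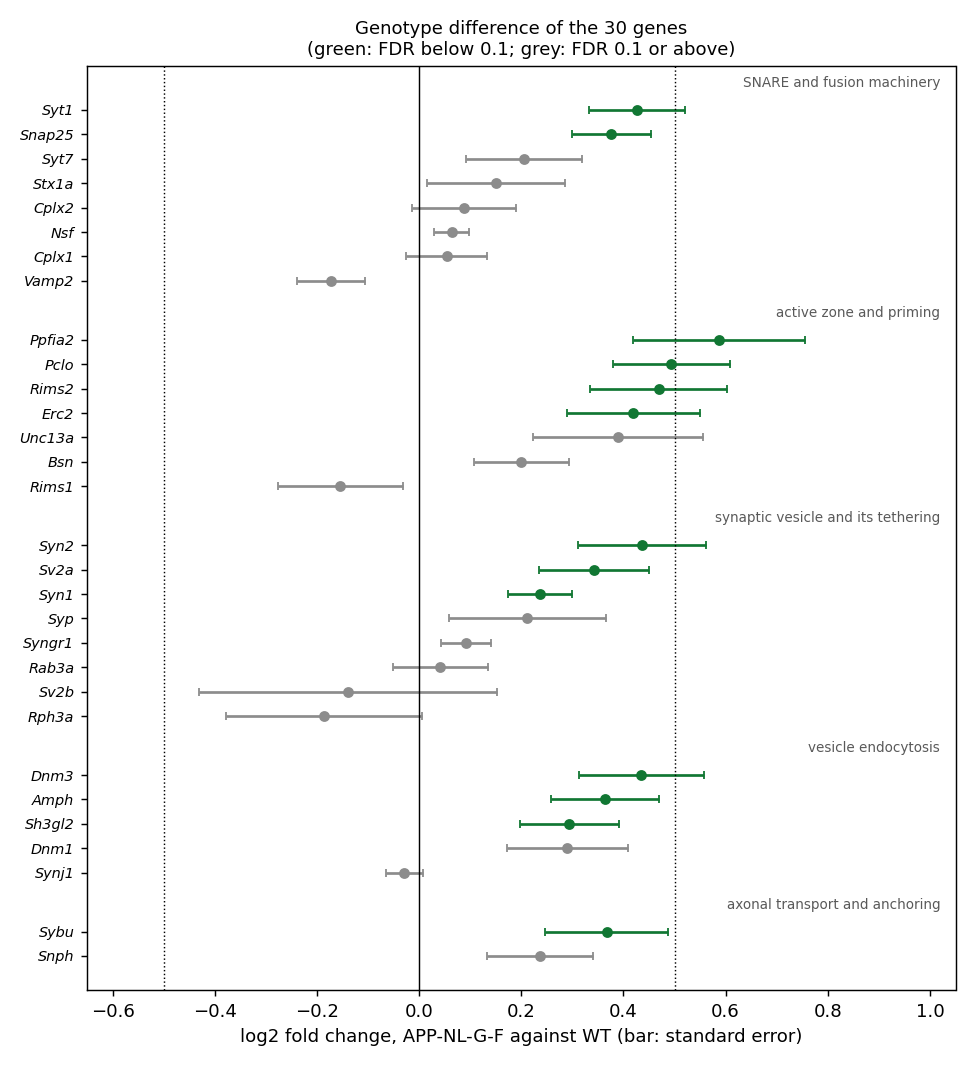
Log2 fold change of each of the 30 genes, APP-NL-G-F against WT, grouped by role, with bars of 1 standard error from edgeR and dotted lines at the fold threshold of 0.5 in either direction. The 13 genes in green had an FDR below 0.1 and all lie to the right of 0, and only Ppfia2 at 0.59 lies past the right dotted line.

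Genes of the active zone held the largest fold changes, with 4 of 7 higher at the FDR alone and a median of 0.42. Ppfia2 (ENSMUSG00000053825, GRCm39 chr10:106305173-106771813) encodes liprin-alpha-2, a scaffold that recruits vesicles to release sites. In WT females its level was 42.8, 41.2, 41.0 and 62.3 CPM, and in WT males 54.0, 28.3, 60.7 and 69.5 CPM. In knock-in females it was 56.4, 73.1, 78.6 and 72.5 CPM, and in knock-in males 89.9, 102, 44.8 and 80.9 CPM. In knock-in, 6 of 8 libraries were above the highest WT library, while male replicate 3 was below the WT median, so the groups overlapped. The means were 49.97 ± 13.9 CPM in WT and 74.7 ± 17.9 CPM in knock-in (SD, n = 8 each), which gave a log2 fold change of 0.59 (SE 0.168, edgeR FDR 0.0346). The call was lost when WT male replicate 2, the lowest library, was left out (0.49, FDR 0.0520), and it remained in the other 15 such fits.

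Pclo encodes Piccolo, a giant scaffold that organises the active zone. WT libraries ran from 51.1 to 84.3 CPM with a median of 72.6, and knock-in libraries from 73.7 to 126 CPM with a median of 101. Again 6 of 8 knock-in libraries exceeded every WT library, the means were 70.9 ± 13.3 and 99.5 ± 18.2 CPM (SD, n = 8 each), and the log2 fold change of 0.49 (SE 0.115, FDR 0.0110 by edgeR) was just short of the fold threshold. Rims2, whose product links vesicles to calcium channels, rose from 33.4 ± 7.07 to 46.1 ± 8.87 CPM (SD, n = 8 each), by 0.47 on the log2 scale (edgeR FDR 0.0341). Erc2, the gene of an ELKS scaffold, rose from 59.5 ± 14.4 to 78.8 ± 13.4 CPM, by 0.42 (edgeR FDR 0.0508). For each of these 3 genes the lowest or second lowest WT library was WT male replicate 2.

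Other active zone genes did not pass at the FDR. Unc13a was measured at 120 ± 36.4 CPM in WT and 157 ± 32.9 CPM in knock-in (log2 fold change 0.39, edgeR FDR 0.156), and Bsn, the gene of Bassoon, at 102 ± 17.5 and 117 ± 14.5 CPM (0.20, FDR 0.198). Both had an unadjusted edgeR p below 0.05. Rims1, a paralog of Rims2, was measured in the other direction, at -0.15 (SE 0.122, FDR 0.490). The strand setting of the counts is not given in the sources used here, so reads from exons that overlap a gene on the opposite strand cannot be fully told apart from those of that gene. Unc13a shares 2758 such bases with Colgalt1 (74.6 CPM in WT, log2 fold change -0.11, edgeR FDR 0.238) and Ppfia2 shares 2439 with Acss3, which had too few counts to test. Sv2a shares 880 with Bola1, which fell (-0.77, edgeR FDR 0.000497), and Synj1 322 with the lncRNA 4930404I05Rik, which also fell (-1.35, FDR 0.000184). Of the other long overlaps, Timp4 at Syn2 (1142) was below 2 CPM on average in both genotypes, and those at Bsn (1095) and Syp (1037) were with lncRNAs that had too few counts to test.

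Among the 8 SNARE and fusion genes, 2 rose at the FDR alone, and the median log2 fold change was 0.12. Snap25 (ENSMUSG00000027273, GRCm39 chr2:136533580-136624362) encodes the plasma membrane SNARE SNAP-25. Its 8 WT libraries lay between 49.7 and 70.4 CPM (median 61.3) and its 8 knock-in libraries between 62.7 and 93.4 CPM (median 77.3). Every WT library was exceeded by 7 of the 8 knock-in libraries, the exception being knock-in male replicate 3. The means were 60.1 ± 6.07 and 77.9 ± 9.73 CPM (SD, n = 8 each), the log2 fold change was 0.38 with an SE of 0.0775, and its edgeR FDR of 0.00512 was the lowest of the 30 genes.

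Syt1 encodes synaptotagmin-1, the calcium sensor of fast release. It ranged from 48.7 to 80.4 CPM in WT (median 69.8) and from 72.6 to 107 CPM in knock-in (median 90.1), again with 7 of 8 knock-in libraries above all of WT. The means were 68.3 ± 12.1 and 91.3 ± 10.9 CPM (SD, n = 8 each), with a log2 fold change of 0.43 (SE 0.0939, edgeR FDR 0.00796). Syt7, Stx1a, Cplx1, Cplx2 and Nsf, which encode a slower calcium sensor, syntaxin-1A, both complexins and the SNARE-disassembling ATPase, had log2 fold changes from 0.05 to 0.21 and edgeR FDRs from 0.266 to 0.743.

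Vamp2, the vesicle SNARE synaptobrevin-2, was measured lower rather than higher, and with a narrower spread in knock-in. WT libraries ran from 44.9 to 64.9 CPM with a median of 56.7, whereas all 8 knock-in libraries lay between 47.3 and 51.6 CPM, below the WT median. The means were 55.5 ± 7.27 and 49.1 ± 1.42 CPM (SD, n = 8 each), and the log2 fold change of -0.17 (SE 0.0661) had an edgeR FDR of 0.113. The partners of this SNARE complex were thus measured in different directions, with Snap25 at 0.38, Stx1a at 0.15 and Vamp2 at -0.17. The narrower spread of Vamp2 was not tested and was not particular to this gene. For most members the coefficient of variation was lower in knock-in than in WT. The exceptions were Snap25, Cplx2, Sh3gl2, Amph, Synj1, Rph3a and Snph, for which it was higher.

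**Figure D2:**
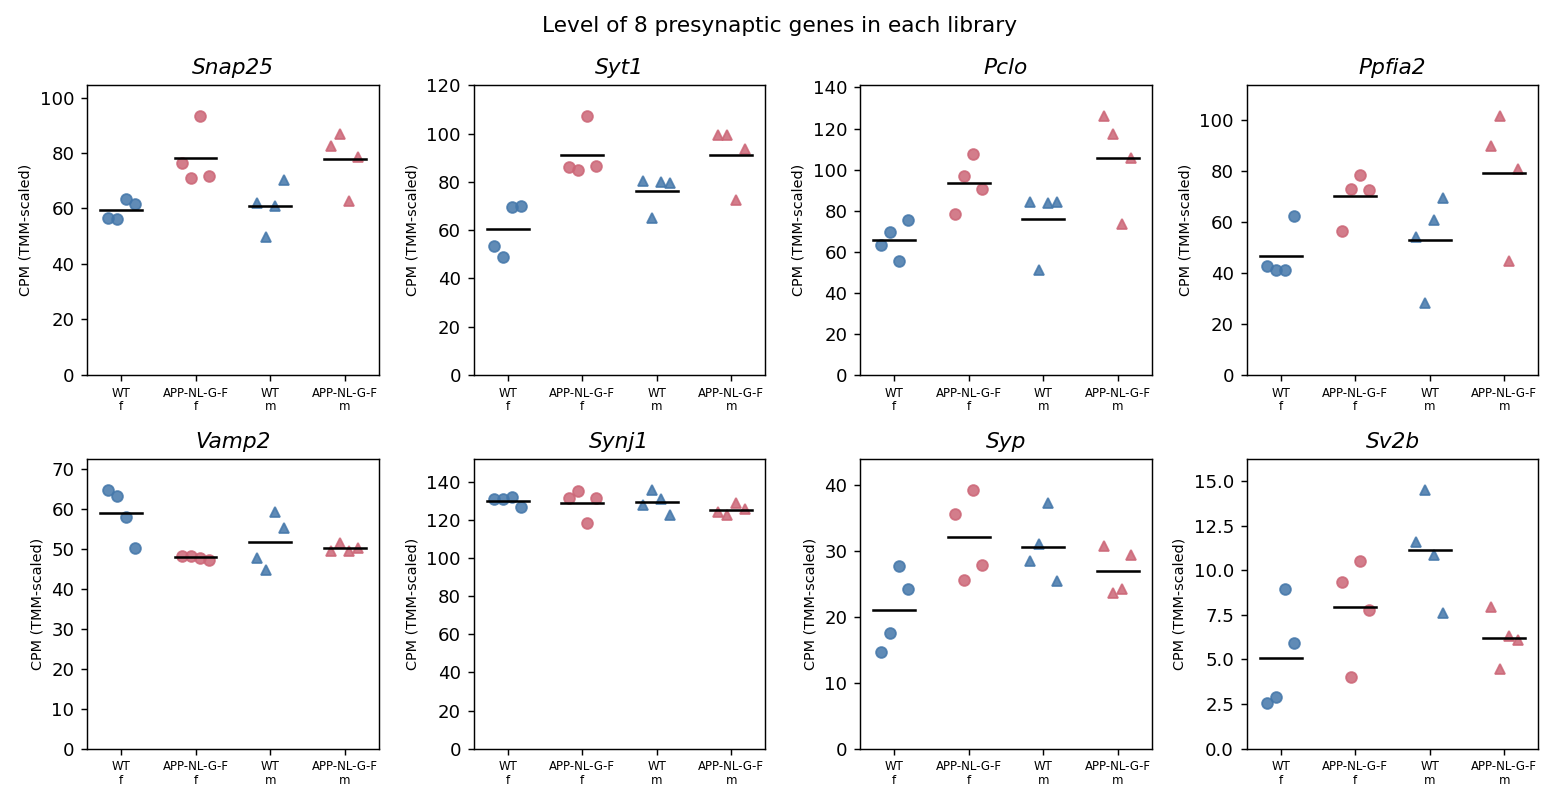
TMM-scaled CPM of 8 presynaptic genes in each of the 16 libraries (f, female circles; m, male triangles; blue WT, red APP-NL-G-F; line, group mean; axes start at 0). Snap25 rises from 49.7 to 70.4 CPM in WT to 62.7 to 93.4 CPM in APP-NL-G-F, Synj1 stays within 118 to 136 CPM, and the 8 APP-NL-G-F values of Vamp2 crowd between 47.3 and 51.6 CPM.

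Of the 8 genes of the vesicle and its tethering, 3 rose at the FDR alone. Syn1 and Syn2 encode synapsins, which hold the reserve pool of vesicles. Syn1 rose from 23.8 ± 2.49 to 27.95 ± 2.24 CPM (SD, n = 8 each; log2 fold change 0.24, edgeR FDR 0.0245), with all 8 knock-in libraries above the WT median of 23.6. Syn2 rose from 26.3 ± 5.20 to 35.4 ± 6.43 CPM (0.44, edgeR FDR 0.0345), and Sv2a, a vesicle glycoprotein, from 33.9 ± 7.68 to 42.5 ± 4.78 CPM (0.34, FDR 0.0525). Syp, Syngr1, Rab3a, Sv2b and Rph3a, which encode synaptophysin, synaptogyrin-1, the vesicle GTPase Rab3A, the second SV2 glycoprotein and the Rab3 effector rabphilin, did not pass. Their log2 fold changes ran from -0.19 (Rph3a) to 0.21 (Syp), with edgeR FDRs from 0.272 to 0.848.

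Vesicle endocytosis contributed 3 of 5 genes at the FDR alone. Dnm3, a dynamin that cuts vesicles from the membrane, rose from 19.2 ± 4.08 to 25.9 ± 4.39 CPM (SD, n = 8 each; log2 fold change 0.44, edgeR FDR 0.0317). Amph, the gene of the membrane-bending protein amphiphysin, rose from 20.6 ± 3.10 to 26.4 ± 4.24 CPM (0.36, FDR 0.0380), and Sh3gl2, the gene of endophilin-A1, from 12.5 ± 1.39 to 15.3 ± 2.30 CPM (0.29, FDR 0.0626). Dnm1, the main neuronal dynamin, was at 78.5 ± 19.6 and 95.2 ± 12.8 CPM (0.29, edgeR FDR 0.136). Synj1 was measured at 130 ± 4.05 CPM in WT and 127 ± 5.67 CPM in knock-in, a log2 fold change of -0.03 with an SE of 0.0360.

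Both genes of axonal transport and anchoring were measured higher. Sybu encodes syntabulin, an adaptor that carries presynaptic cargo along axons, and rose from 17.0 ± 3.87 to 21.8 ± 3.81 CPM (SD, n = 8 each; log2 fold change 0.37, edgeR FDR 0.0639). Snph encodes syntaphilin, which docks axonal mitochondria, and was at 32.8 ± 5.10 and 38.6 ± 6.34 CPM (0.24, FDR 0.166).

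Gene size, which the choice of members did not use, is given beside the counts as a description. Of the 14 members spanning at least 100 kb of genome, 10 rose at the FDR alone, with a median log2 fold change of 0.39. Among the 16 shorter members 3 did so, Snap25, Syn1 and Sv2a, with a median of 0.20. Protein-coding genes showed the same order at a lower level, with 358 of 2240 long genes and 453 of 11432 shorter genes higher at the FDR and medians of 0.05 and -0.01. Long members are Erc2, Syt1, Dnm3, Rims1, Rims2, Ppfia2, Sh3gl2, Pclo, Amph, Sv2b, Sybu, Syn2, Rph3a and Nsf, of which Rims1, Sv2b, Rph3a and Nsf did not pass.

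Within the introns of 7 members, the annotation lists 14 short transcripts on the same strand of the class TEC, which awaits experimental evidence. Enough counts to test were held by 5 of them, 1 each in Syt1, Syt7, Bsn, Pclo and Erc2, and their log2 fold changes ran from 0.52 to 1.03 with a median of 0.75. None passed at the FDR in edgeR. The 1149 TEC rows tested over the whole genome had a median of 0.34, so that the rows inside these genes shared the direction of the class.

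Relatives of the machinery that most cells express offered a comparison within the same libraries. The background at the FDR alone was 6.95% of all genes higher and 7.82% lower. A list of 28 such genes had a median log2 fold change of -0.05, with 1 higher at the FDR alone, Syt11 (0.24, edgeR FDR 0.0568), and 2 lower, Vamp3 (-0.13, FDR 0.0968) and Stx4a (-0.14). Vamp7, also on that list, was not used here. In 13 pairs of a member and its relative, the relative was the more abundant per kb in 8, as for Bin1 against Amph (60.8 and 2.72 CPM per kb), Stx7 against Stx1a (24.7 and 2.48) and Dnm2 against Dnm1 (38.5 and 11.3). The member's log2 fold change was above that of its relative in 11 of 13 pairs, the exceptions being Vamp2 with Vamp3 and Rab3a with Rab3d. Each member was set against 1 relative, and both counts depend on that choice. For Stx1a (0.15), the listed Stx3 was at 0.30 and 0.362 CPM per kb, and Stx4a at -0.14 and 19.8 CPM per kb. In the SNAP pair, Snap25 was at 0.38 and Snap23, which serves fusion in many cell types, at -0.05 (SE 0.0585), and in the liprin pair Ppfia2 was at 0.59 and Ppfia1 at -0.05 (SE 0.0661).

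**Figure D3:**
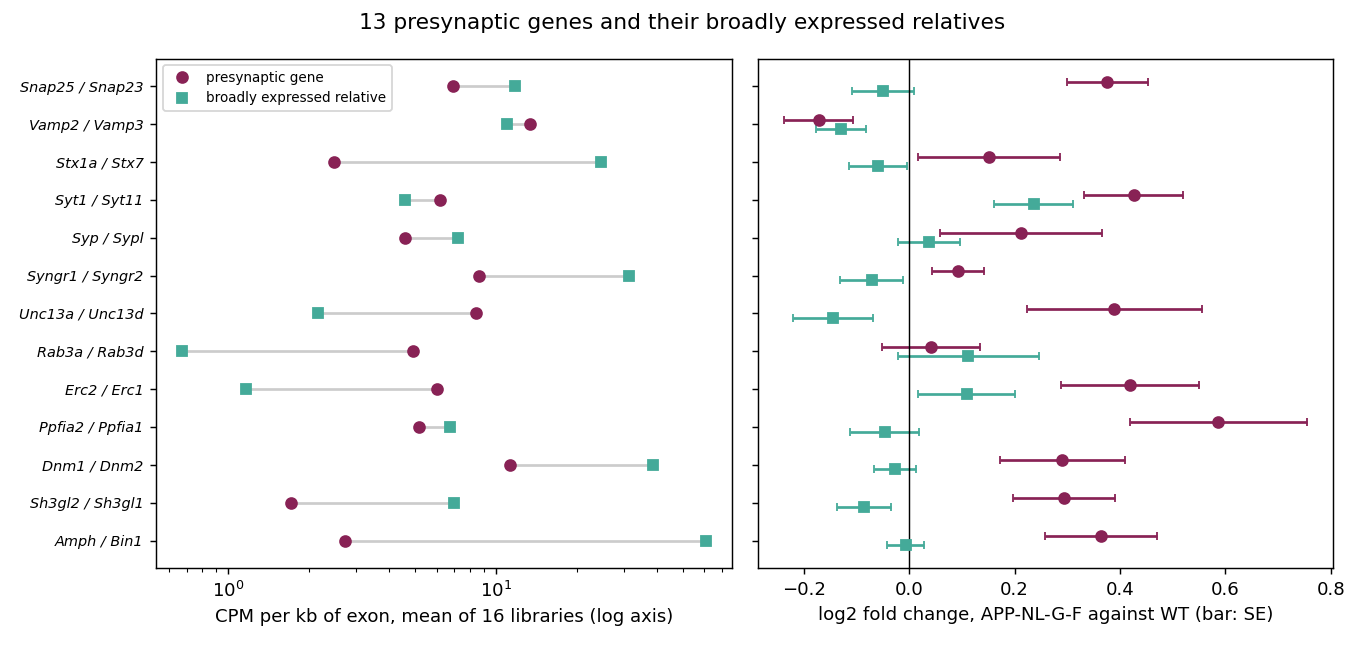
Left, mean level over 16 libraries in CPM per kb of exon (log axis) of 13 presynaptic genes (circles) and their broadly expressed relatives (squares); right, log2 fold change of each, APP-NL-G-F against WT, with bars of 1 standard error. Relatives are the more abundant in 8 pairs, and the presynaptic gene has the higher fold change in 11.

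The rest of the release pathway was read from a second list of 39 genes. Too few counts to test were found for 4 of them, Syt2, Cplx3, Cplx4 and Sncg, with at most 9 in any library. Of the 35 tested, 14 rose at the FDR alone and 0 fell, against 6.95% and 7.82% of all genes. Their median log2 fold change was 0.26. The count of 14 was 7 at an FDR of 0.05, where 3.6% of all genes were higher. With 1 library left out, it was 7 without WT female replicate 1 or knock-in female replicate 3, and 8 without WT male replicate 2. It was 9 without WT female replicate 2 or 3, or knock-in male replicate 1 or 2, and at most 21, without knock-in male replicate 3. The share of all genes higher ran from 3.88% to 12.3% over the fits with 1 library left out. The fold threshold was passed by 3 as well, against 4.33% of all genes. Synpr, the gene of the vesicle protein synaptoporin, ran from 7.07 to 12.3 CPM in WT and from 9.82 to 21.3 CPM in knock-in (0.87, edgeR FDR 0.000819), Doc2a, a calcium sensor of spontaneous release, was below 2 CPM throughout (0.76, FDR 0.0536), and Stxbp5l, tomosyn-2, had medians of 15.4 and 25.5 CPM (0.58, FDR 0.0815).

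Marker sums of other cell types were compared between the genotypes with an exact permutation test, two-sided, exchanging genotype within sex, and adjusted over 16 lists. For the counts of single markers at the FDR alone, the background was 6.95% of all genes higher and 7.82% lower. The neuron markers, which include Rbfox3, Map2 and Elavl3, summed to 366 to 542 CPM in WT and 455 to 729 CPM in knock-in (log2 difference 0.33, exact permutation p = 0.00612, adjusted 0.0327), with 7 of 20 genes higher at the FDR alone and 0 lower. The rise was not uniform. Map2 was the most abundant of them, with a WT mean of 168 CPM (log2 fold change 0.367, edgeR FDR 0.0228). Nefl, Nefm and Nefh were at 0.014 to 0.078, and Stmn2 (-0.128) and Uchl1 (-0.015) were below 0. Markers of OB inhibitory neurons, such as Gad1, Gad2 and Meis2, differed by 0.39 (adjusted p = 0.0229 by the exact permutation test; 9 of 13 genes higher), and those of neuroblasts, such as Dcx, by 0.25 (adjusted p = 0.00653; 4 of 8 higher), the raw p of the latter being the smallest this permutation gives for a two-sided test. Most of the neuroblast sum, 207 to 244 CPM in WT, came from Sox4, with a WT mean of 143 CPM (log2 fold change 0.139, edgeR FDR 0.106). Dcx had a WT mean of 16.35 CPM (0.715, edgeR FDR 0.00635). Microglia markers differed by -0.01 (adjusted p = 0.785 by the exact permutation test). The defining noradrenergic markers Dbh, Slc6a2 and Phox2a had at most 5 counts in any library. Oligodendrocyte markers, a list that is not neuronal, summed to 233 to 432 CPM in WT and 285 to 419 CPM in knock-in (difference 0.33, adjusted p = 0.102 by the exact permutation test), and 3 of 8 were higher at the FDR alone, 8 of 8 above 0, with a median log2 fold change of 0.38. The other lists had adjusted p-values of 0.102 (noradrenergic neuron, difference 0.38), 0.183 (oligodendrocyte precursor) and 0.521 to 0.785 (projection neuron, olfactory sensory neuron, astrocyte, ensheathing, endothelial, pericyte and fibroblast, border macrophage, monocyte and neutrophil, and red blood cell).

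The presynaptic genes and the neuron markers were lowest in the same libraries. Their own sum was 1087 to 1488 CPM in WT and 1212 to 1706 CPM in knock-in. The lowest member sum in WT, 1087 CPM in male replicate 2, fell in the library with the lowest neuron sum, 366 CPM. The same held in knock-in, where male replicate 3 had 1212 and 455 CPM, and this library was the lowest of its genotype for 21 of the 30 genes. When the neuron level of each library was added to the edgeR model as a covariate, 0 members passed at the FDR, 4 were higher at an unadjusted p below 0.05, the median log2 fold change was 0.07, and Ppfia2 was at 0.22 (edgeR FDR 0.653). Calls over all genes were also few in that fit, with 0.307% higher at the FDR alone and 0.241% past both thresholds. At an unadjusted p below 0.05 in edgeR, 3.87% of all genes were higher in it. The covariate itself differed between the genotypes, so part of the genotype difference is removed with it, and what share of the members' difference belongs to neuron content was not tested.

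**Figure D4:**
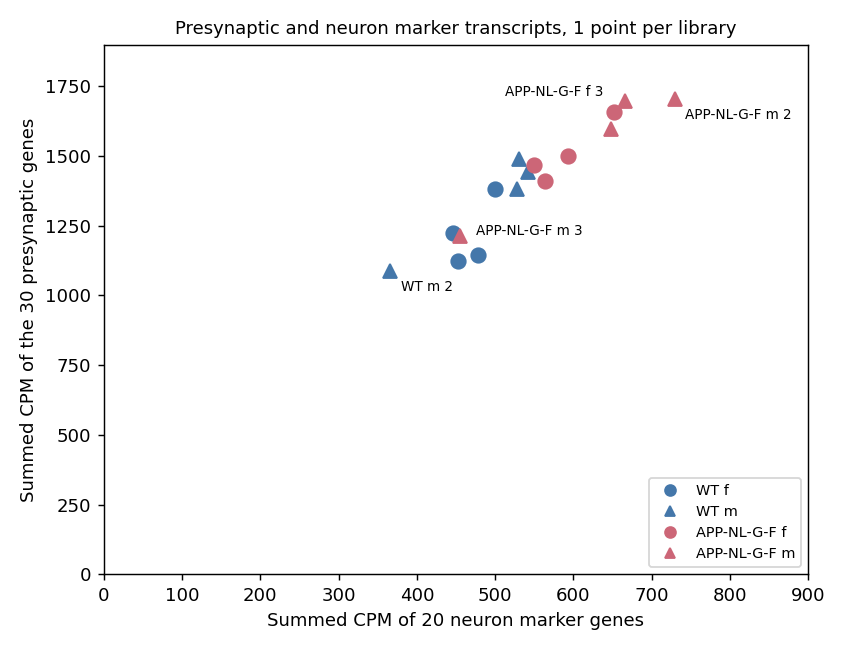
Summed CPM of the 30 presynaptic genes (vertical) against summed CPM of 20 neuron markers (horizontal) in each library (circles f, triangles m; blue WT, red APP-NL-G-F; both axes from 0). WT male replicate 2 lies lowest on both axes (366 and 1087 CPM), and APP-NL-G-F male replicate 3 (455 and 1212 CPM) lies among the WT libraries.

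More members passed within females than within males. In females 7 of 30 members passed both thresholds, against a background of 2.82%: Syp (log2 fold change 0.60), Syt1 (0.59), Syn2 (0.58), Erc2 (0.57), Sv2a (0.56), Pclo (0.50) and Amph (0.50). Snap25 (0.39) and Syngr1 (0.20) also rose at the FDR alone, where the background was 3.31%, and at an unadjusted p below 0.05 the count was 15 (9.75%). Vamp2 fell in females by 0.30 (edgeR FDR 0.0450; 6.11% of all genes fell). Its 4 WT females were at 64.9, 63.4, 58.0 and 50.2 CPM and its 4 knock-in females at 48.2, 48.4, 47.9 and 47.3 CPM. The count of 7 rests on few libraries, as it was 1 without WT female replicate 1 or replicate 2, 2 without knock-in female replicate 3, 4 without knock-in female replicate 4, and 12 without WT female replicate 4. The share of all genes called in females in those fits is not given here.

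In males 0 of 30 passed either threshold in edgeR, where the background was 0.0878% of all genes higher and 0.165% lower past both thresholds, and 0.0988% and 0.17% at the FDR alone. At an unadjusted p below 0.05, 8 members were higher and 1, Sv2b, was lower (background 5.62% higher and 6.05% lower). Without knock-in male replicate 3, 3 members were called in males, and the share of all genes in that fit is not given here. The median log2 fold change of the 30 genes was 0.39 in females and 0.18 in males.

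A threshold passed in one sex alone is no test of a sex difference, so the genotype-by-sex interaction was tested as well. It reached the FDR for 0 of 30 members and for 5 genes overall (0.0274%, all lower in the female minus male direction). At an unadjusted p below 0.05, 4 members had a difference toward females and 2 toward males, against 1.88% and 4.07% of all genes. Syp was at 14.7, 17.6, 27.7 and 24.2 CPM in WT females and at 35.5, 25.5, 39.3 and 27.9 CPM in knock-in females. In males it was at 28.5, 31.0, 37.3 and 25.4 CPM in WT and at 30.8, 23.7, 24.2 and 29.3 CPM in knock-in. Its female and male fold changes were thus 0.60 and -0.18 (interaction 0.78, adjusted p = 0.520 by edgeR).

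Sv2b showed the widest gap, at 0.62 in females and -0.86 in males (interaction 1.49, edgeR FDR 0.504). WT females held 2.56 to 8.92 CPM and WT males 7.62 to 14.5 CPM, whereas both knock-in groups lay between 4.03 and 10.51 CPM. The other members at this level were Sv2a (0.43) and Syngr1 (0.22) toward females and Cplx1 (-0.36) and Vamp2 (-0.26) toward males. Several marker lists also had different genotype medians in the sexes. At the FDR alone in females, 6.11% of all genes were lower and 3.31% higher. OB projection neuron markers had the same signs as Sv2b and Syp, with a median log2 fold change of 0.45 in females and -0.42 in males, and 0 of 7 passed at the FDR in either sex. The opposite signs were found for markers of endothelial cells (-0.90 in females, where 6 of 10 fell at the FDR, and 0.82 in males), olfactory sensory neurons (-0.80, 3 of 8 lower and 1 higher, and 0.69) and astrocytes (-0.54, 3 of 9 lower, and 0.14). The part of these cell types in the members' values was not tested.

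**Figure D5:**
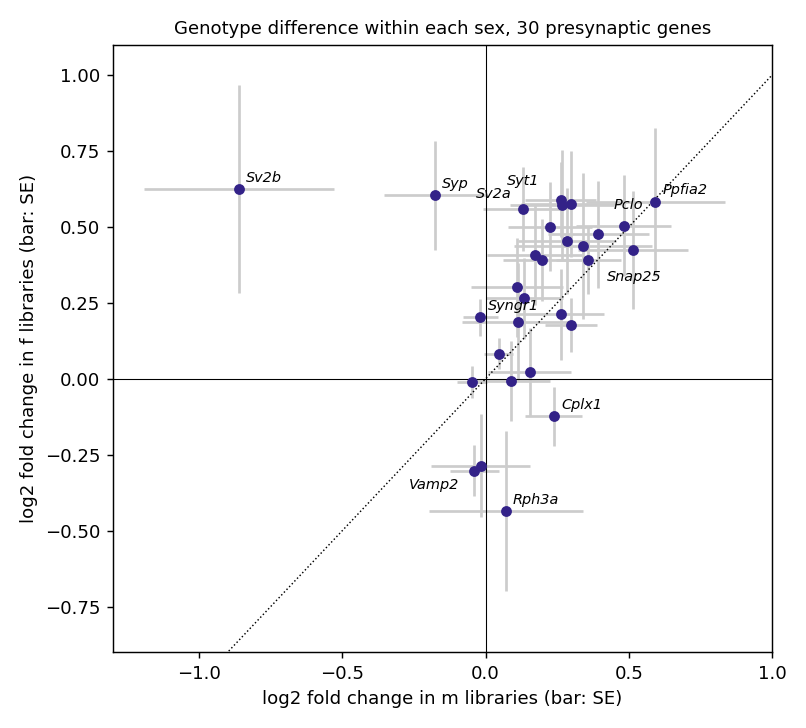
Log2 fold change of the 30 genes in females (vertical) against males (horizontal), with bars of 1 standard error from edgeR and a dotted line of equal values. Most genes lie above 0 on both axes, Ppfia2 (0.58 and 0.59) and Pclo (0.50 and 0.48) lie near the line, and Syp and Sv2b lie far above it.

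Replicate numbers in the labels divide each group into lower (1 and 2) and higher (3 and 4) numbers, a split made after the data were seen. Between replicates 1 and 2 alone, the median log2 fold change of the members was 0.38, with 16 of 30 higher at the FDR alone (10.4% of all genes in that fit) and 10 past both thresholds (8.1%). Between replicates 3 and 4 it was 0.13, with 0 of 30 at either threshold in edgeR and 3 at an unadjusted p below 0.05. Few genes of any kind were called higher in that subset, 0.131% at the FDR alone and 0.126% past both thresholds. At an unadjusted p below 0.05 in edgeR, 3.08% of all genes were higher in it. Erc2, Dnm3 and Ppfia2 had the lowest p for a difference between these subsets (Ppfia2 0.93 and 0.26, edgeR FDR of the difference 0.613). No member passed the FDR for that difference, and 24 of 30 were above 0 in replicates 3 and 4. The mean neuron sum was 457 CPM in WT and 638 CPM in knock-in among replicates 1 and 2, and 504 and 576 CPM among replicates 3 and 4. Leaving out 1 library at a time gave between 9 members (in 4 of 16 fits) and 18 (without knock-in male replicate 3) higher at the FDR alone, and between 0 and 6 past both thresholds. The share of all genes called higher moved as well, from 3.88% to 12.3% at the FDR alone and from 2.55% to 7.24% past both thresholds. Snap25, Syt1, Pclo, Syn1, Syn2, Rims2, Dnm3, Amph and Ppfia2 passed at the FDR in all 16 of these fits.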

How the data were processed

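Paired-end reads were mapped by the authors with STAR (GRCm39, gencode genes, a human App sequence added), and raw counts per gene were deposited with 1 column per library. The strand setting of the counting is not given in the sources used here. From these counts, R 4.3.3 with edgeR 4.0.16 (TMM, glmQLFit and glmQLFTest) tested genotype with sex as an additive term over 18227 of 57010 genes, those with 5 counts or more in 50% of libraries or more (99.86% of counts). The 4 groups were fitted together for contrasts within sex and for the interaction. Each SE is the size of the log2 fold change over the root of F, and log2 CPM carries a prior count of 2. Exonic lengths came from a GRCm39 reference annotation that matched 96.8% of rows and may differ in release from the authors'. Depth was 9052932 to 18117286 counts per library, which gives the lowest-count member, Rph3a, 23 to 80 counts.

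The members, the other gene lists and the 16 marker lists were chosen with earlier results of these data known. Members called in the genotype test were named with every library, those at an FDR below 0.1 or an unadjusted p below 0.05 with means and fold change, and the rest mainly by ranges. Alternatives were other normalizations (RLE, upper quartile), DESeq2 1.42.0, limma voom 3.58.1, no filter, an FDR of 0.05, the FDR alone, a neuron covariate, a replicate block, subsets of replicates and leaving out each library. Counts at the FDR alone and the test between replicate subsets were added after seeing the data. The procedure was tested on simulated data. Libraries of a group all differed beyond counting noise. The values of some listed genes are not reported here.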

Additional observations from a re-analysis of the deposited data

Results flagged for a closer look

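Within each group of 4 libraries, a library was marked where its gap to the nearest other library, as a share of the whole range, passed Dixon's critical value. Chance marks about 1 in 20 groups, or 6.6 of the 132 groups tested here, and 19 were marked. WT male replicate 2 was the lowest of its group for Pclo (gap 0.9887 of the range), Erc2 (0.9696), Syt1 (0.9411), Rims2 (0.9142), Amph (0.8988), Syt7 (0.8461) and Snph (0.8383), and so it was for the mean log2 CPM of the 30 members (0.8838) and the sum of the neuron markers (0.9232). Knock-in male replicate 3 was lowest for Bsn (0.9553), Unc13a (0.9374) and Dnm1 (0.8719). Knock-in female replicate 3 was highest for Syt1 (0.9173), Sh3gl2 (0.9024) and the mean of the members (0.8937). WT female replicate 4 was highest for Ppfia2 (0.8937) and Syt7 (0.8328). Single genes were lowest in knock-in male replicate 4 (Nsf, 0.8386) and male replicate 2 (Rab3a, 0.8847). These values come from the same 16 libraries, so they are not independent marks.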

How the results depend on the processing

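No member was called lower under any alternative run. The single member called higher became 2 with upper-quartile normalization, 2 with no filter, 3 with limma voom and 13 at the FDR alone. The share of all genes called higher, 4.33% in the fit reported, was 4.58%, 2.54%, 4.83% and 6.95% in that order. The count was 10 within replicates 1 and 2 (8.1% of all genes). It was 0 within replicates 3 and 4 (0.126%) and with the neuron covariate (0.241%). Leaving out 1 library gave 0 (WT male replicate 2 left out, 2.56% of all genes) to 6 (knock-in male replicate 3 left out, 7.24%). The 13 members at the FDR alone became 0 with the neuron covariate and 0 within replicates 3 and 4, where 0.307% and 0.131% of all genes were higher. That count was 9 to 18 with 1 library left out, beside 3.88% to 12.3% of all genes. The median of 0.24 fell to 0.071 with the neuron covariate and was 0.22 to 0.29 with 1 library left out. The 7 members called in females became 1 to 12 with 1 library left out. The 0 in males became 2 with no filter and 0 to 3 with 1 library left out, and the 0 for the sex difference became 2 with no filter. Shares of all genes for these alternative fits within sex are not given here. The sign of members that had not passed turned with the neuron covariate for Syt7 (-0.046), Stx1a (-0.112), Cplx2 (-0.083), Synj1 (0.025, from -0.029) and Snph (-0.004), within replicates 1 and 2 for Cplx1 (-0.04) and Rab3a (-0.013), and within replicates 3 and 4 for Stx1a (-0.008). With 1 library left out, Sv2b ran from -0.302 to 0.007 (the latter without WT male replicate 2) and Rab3a from -0.01 (without WT female replicate 4) to 0.093. The cause was not tested, though the subsets hold fewer samples. Scaling by RLE or the upper quartile moved the median of all genes to at most 0.01.

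Of 24 pairs of libraries that share a replicate number, 9 correlated above 0.1 (range -0.37 to 0.41), and 7 of 16 libraries correlated best with their own number. No chance level was computed for these counts, so they do not settle whether the numbers pair the samples. With the replicate block, 14 members were higher at the FDR alone (6.77% of all genes), 6 were called in females and the median was 0.24.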
